A study of Mus musculus with 2 samples.

Results

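Low-RNA tumour-like barcodes were single-cell barcodes that carried transcripts of the tumour genes Hmga2 and Rhox5 but few unique molecular identifiers (UMIs, each standing for 1 captured transcript molecule). They were 564 of the 17746 barcodes kept, from 18964 deposited: 218 of 9313 in the treated library and 346 of 8433 in the PBS library. Both libraries came from subcutaneous tumours grown in mice from 4T1, a mouse mammary carcinoma line. The treated mice had received phototherapy mediated by AIE COF, a material of the covalent organic framework class, and the tumours were taken on day 7 afterwards. The control mice had received PBS. C57BL/c is the strain named for both, a spelling left unresolved here, and the labels give no age, light dose or number of animals per suspension. With 1 library per treatment there is no replicate, so no test across animals was possible. All intervals below are 95% intervals and cover counting error only.

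Barcodes were kept if 200 or more genes were detected and no more than 20% of UMIs were mitochondrial. Members were chosen by their UMI counts and had 500 to 5000 UMIs, no UMI of Ptprc (the leukocyte surface phosphatase CD45), none of the T cell genes Cd3d, Cd3e and Cd3g, none of the B cell genes Cd79a and Pax5, none of the macrophage genes C1qa, C1qb and C1qc, and at least 2 UMIs of Hmga2 and Rhox5 together. The comparison barcodes, called high-RNA here, had at least 10000 UMIs and under 100 CPM (UMIs of a gene relative to the summed UMIs of the barcodes) of Ptprc. They numbered 2607 in the treated library and 3244 in the PBS library. Since these counts chose the barcodes, differences between low-RNA and high-RNA barcodes are a description of the choice and were not tested.

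A cell yields few UMIs when it is small, when it holds little RNA, or when its cytoplasmic RNA has been lost before capture. Messages of ribosomal proteins and translation factors lie in the cytoplasm, messages encoded by mitochondrial DNA lie inside the mitochondria, and the long noncoding RNA Malat1 is retained in the nucleus. For this reason the shares of these RNA classes are commonly read in droplet data when cell integrity is judged. Hmga2 encodes a chromatin-binding protein of embryonic and tumour cells, and Rhox5 an X-linked homeobox protein of reproductive tissue that many mouse tumour lines express.

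The deposited counts sum to 115576457 UMIs in the treated library and 145045294 in the PBS library, of which the members held 575690 and 930780. The smallest barcode total in either library was 500 UMIs. Both libraries share 39 barcode sequences, of which 0 treated and 4 PBS members used one, and none was a member in both.

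The selection narrowed in steps that differed between the libraries. Within 500 to 5000 UMIs there were 5021 treated and 3716 PBS barcodes, and 1618 and 1881 of these had no Ptprc UMI. All the immune criteria together left 835 treated and 1196 PBS barcodes. Of these, 218 treated and 346 PBS barcodes had 2 or more UMIs of Hmga2 and Rhox5. Just inside that limit, at exactly 2 UMIs, stood 88 treated and 149 PBS barcodes, and just outside, at 1 UMI, 141 and 303. In the 500 UMIs below the upper limit lay 16 treated and 35 PBS members, and in the 500 UMIs above it 8 and 32 barcodes that met every other criterion. A further 76 treated and 46 PBS barcodes met all criteria except that more than 20% of their UMIs were mitochondrial.

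Members were 2.34% of kept barcodes in the treated library (interval 2.04 to 2.67%) and 4.10% in the PBS library (3.69 to 4.55%), a ratio of 0.571 (0.479 to 0.678). The ratio depended on what members were counted against. Among barcodes of 500 to 5000 UMIs the shares were 4.34% and 9.31%, a ratio of 0.466 (0.392 to 0.554), and among those without Ptprc they were 13.5% and 18.4%, a ratio of 0.732 (0.615 to 0.870). Among low-RNA and high-RNA barcodes combined, members were 7.72% of the treated and 9.64% of the PBS library, a ratio of 0.801 (0.673 to 0.951). Treated shares were lower than PBS shares by all 4 denominators. With at most 10% mitochondrial UMIs allowed, the log2 ratio of shares among kept barcodes was -1.13, against -0.81 as chosen. A limit above 20% was not tried. Barcodes that failed the 20% limit alone were more numerous in the treated library, 76 against 46, so the ratios depend on that limit.

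Within ranges of UMIs the share of immune-negative barcodes that carried the markers was close in both libraries, though depth was not matched inside a range. From 500 to under 1000 UMIs, 7.27% of treated and 8.38% of PBS barcodes had 2 or more marker UMIs (intervals 4.72 to 10.6% and 5.84 to 11.6%). From 1000 to under 2000 UMIs the shares were 20.2% and 21.7%, and between 2000 and 5000 UMIs 58.3% and 57.1%. The rise with UMIs is built into a minimum of 2 UMIs, so a tumour cell of few UMIs met the rule less easily.

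Free RNA in the suspension can place marker UMIs in barcodes of other cells. B cell barcodes of 500 to 5000 UMIs, with 2 or more UMIs of Cd79a and Pax5, served as a class that should lack both markers. Of these, 13 of 816 treated (1.59%, interval 0.851 to 2.71%) and 4 of 301 PBS barcodes (1.33%, 0.363 to 3.37%) had 2 or more UMIs of Hmga2 and Rhox5, at median depths of 1263.5 and 1580 UMIs. Among B cell barcodes of 2000 to 5000 UMIs it was 7 of 100 treated and 1 of 69 PBS barcodes. The same share in the immune-negative barcodes was 26.1% in the treated and 28.9% in the PBS library, at medians of 1213 and 1413 UMIs. After each barcode had been thinned to 500 UMIs, 0.245% of treated and 0.332% of PBS B cell barcodes carried 2 marker UMIs. The thinned shares were 4.19% and 5.02% in the immune-negative and 11.8% and 10.3% in the high-RNA barcodes. Marker carriage in immune-negative barcodes was thus above the B cell level and below the high-RNA level in both libraries.

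The 2 markers were unevenly shared among members. Both genes had a UMI in 110 treated and 181 PBS members, Hmga2 alone in 64 and 69, and Rhox5 alone in 44 and 96. Hmga2 (GRCm38 chr10:120361275-120476469, minus strand) stood at 879 CPM in treated and 712 CPM in PBS members, against 375 and 342 CPM in high-RNA barcodes. Rhox5 (chrX:37804842-37808876, plus strand) stood at 571 and 630 CPM in members, against 767 and 734 CPM in high-RNA barcodes. The rule required these genes, so their levels and their ratio to each other are shaped by the choice and are a description.

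Other genes expressed by the high-RNA barcodes were present in the members. S100a6, a calcium-binding protein, stood at 7721 CPM in treated and 8258 CPM in PBS members, and the galectin Lgals1 at 3373 and 4979 CPM. The intermediate filament gene Vim stood at 1746 and 1758 CPM. All 3 were lower than in high-RNA barcodes, where S100a6 had 12902 and 12273 CPM, Lgals1 9181 and 10796 CPM, and Vim 2685 and 2510 CPM. They were not absent from B cell barcodes. After thinning to 500 UMIs, S100a6 was found in 82.6% of treated and 89.6% of PBS members, against 27.1% and 41.5% of B cell barcodes. Lgals1 was found in 69.3% and 81.5%, against 21.9% and 33.2%, and Vim in 55.0% and 55.2%, against 17.6% and 17.6%. The source of those B cell UMIs was not tested. Of 24 tumour identity genes, 18 were measured, and their median log2 ratio of low-RNA over high-RNA was -0.28 in the treated and -0.26 in the PBS library. The epithelial genes Krt8, Krt18 and Cdh1 had no UMI in any member and Epcam had 0 and 1 UMI. These 4 genes stayed under 1 CPM in the high-RNA barcodes too, so the name tumour-like rests on Hmga2, Rhox5 and the genes above and not on epithelial markers, although 4T1 is a carcinoma line.

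Markers of other cell types were low but not absent. The 8 leukocyte markers, Ptprc among them, summed to 224 CPM in treated and 249 CPM in PBS members, against 99.98 and 76.0 CPM in high-RNA barcodes. In both libraries 6 of the 8 were at least 2-fold higher in members, beside 12.4% of all genes. With the interval also required to lie apart from 0 it was 5 of the 8, beside 7.54%. The 10 macrophage markers summed to 268 and 369 CPM, against 168 and 153 CPM. T cell markers summed to 20.8 and 18.3 CPM, against 11.6 and 6.98 CPM, although the rule holds Cd3d, Cd3e and Cd3g at 0 in members, as it does Ptprc and the 3 C1q genes of the lists above. Endothelial markers summed to 33.0 CPM in treated and 10.7 CPM in PBS members, from 19 and 10 UMIs. The 8 fibroblast markers summed to 2824 and 3860 CPM, close to the 3278 and 3672 CPM of high-RNA barcodes. Neither rule excludes fibroblasts, so these sums do not tell whether either set holds fibroblasts. The part of other cells' RNA in the comparisons below was not tested. Counts of genes without some of the carrying barcodes are given below as a description.

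Members held fewer UMIs and genes than high-RNA barcodes, by the rule. Their medians were 2552.5 UMIs and 1339 genes in the treated library and 2584.5 UMIs and 1305 genes in the PBS library, against 30262 and 34406 UMIs and 5184 and 5354 genes in high-RNA barcodes. Thinned to 500 UMIs, members gave medians of 371.5 and 371 genes and high-RNA barcodes 374 and 368 genes. Per UMI, members were therefore about as diverse as high-RNA barcodes.

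The make-up of that RNA differed. Mitochondrial UMIs had a median share of 7.69% in treated and 6.35% in PBS members, against 3.30% and 3.35% in high-RNA barcodes. Ribosomal protein UMIs had medians of 11.7% and 16.4%, against 22.3% and 23.05%. Malat1 alone took a median of 3.27% of a treated member's UMIs and 1.77% of a PBS member's, against 1.004% and 1.32% in high-RNA barcodes. Barcodes of more than 5000 and under 10000 UMIs with low Ptprc lay between for ribosomal protein, with medians of 19.9% in 203 treated and 18.6% in 393 PBS barcodes. B cell barcodes of 500 to 5000 UMIs had ribosomal medians of 20.2% and 21.6% and mitochondrial medians of 3.44% and 3.27%, close to the high-RNA barcodes at a depth below that of the members. Their Malat1 medians were 2.97% and 3.22%, near that of the members in the treated library and above it in the PBS library.

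The members were not uniform. Ribosomal protein shares ran between 1.64 and 31.8% in treated and between 1.69 and 33.3% in PBS members. In 99 of 218 treated (45.4%, interval 38.7 to 52.3%) and 116 of 346 PBS members (33.5%, 28.6 to 38.8%) the share was under 10%, against 0.307% of treated and 1.08% of PBS high-RNA barcodes. The limit of 10% was chosen after the values had been seen, and 23 treated and 34 PBS members lay within 2 points of it. Across members, ribosomal and Malat1 shares had Spearman coefficients of -0.65 in 218 treated and -0.72 in 346 PBS barcodes, and ribosomal and mitochondrial shares of -0.61 and -0.43. These shares have the same total as divisor and are given as a description.

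**Figure D1:**
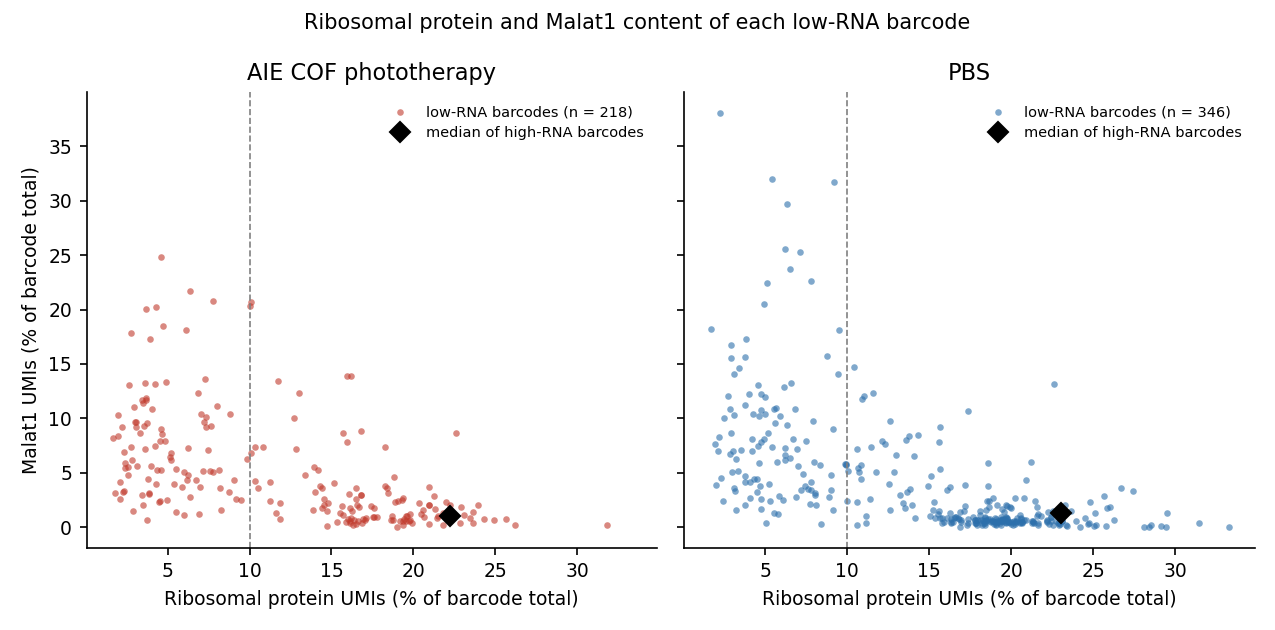
Each point is 1 low-RNA barcode, with the percent of its UMIs from ribosomal protein genes on the x axis and from Malat1 on the y axis, for the treated library (218 barcodes, left) and the PBS library (346, right). The diamond marks the median of the high-RNA barcodes and the dashed line the 10% limit: barcodes left of it, 99 treated and 116 PBS, include those with the highest Malat1 shares.

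Members under 10% ribosomal protein were rich in nuclear and mitochondrial RNA. Their median Malat1 share was 6.43% in the treated and 7.02% in the PBS library, and their median mitochondrial share 10.8% and 8.09%. Lgals1 stood at 1625 and 1931 CPM in them and Cycs, the gene of cytochrome c, at 130 and 173 CPM, while Hmga2 stood at 1333 and 1051 CPM. As a description of the choice, members carrying Hmga2 alone fell under the 10% limit in 70.3% of treated and 58.0% of PBS cases, and those carrying Rhox5 alone in 18.2% and 22.9%.

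The other members were split again by the summed share of 10 genes, those furthest below 0 in treated over PBS members: Actb, Hnrnpa1, Ptges3, Rrm2, Actr2, Abhd2, Ythdf2, Wtap, Mtmr2 and Polh. Their summed share of a barcode's UMIs had a median of 0.322% and a maximum of 2.88% in treated members, and a median of 0.891% and a maximum of 8.23% in PBS members. At 1% or more stood 57 of 218 treated (26.1%, interval 20.4 to 32.5%) and 167 of 346 PBS members (48.3%, 42.9 to 53.7%). The genes were picked for their difference between the libraries and the 1% limit after the values had been seen, so that contrast is a description. In treated members 33 lay within 0.25 points of the limit, and in PBS members 22.

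**Figure D2:**
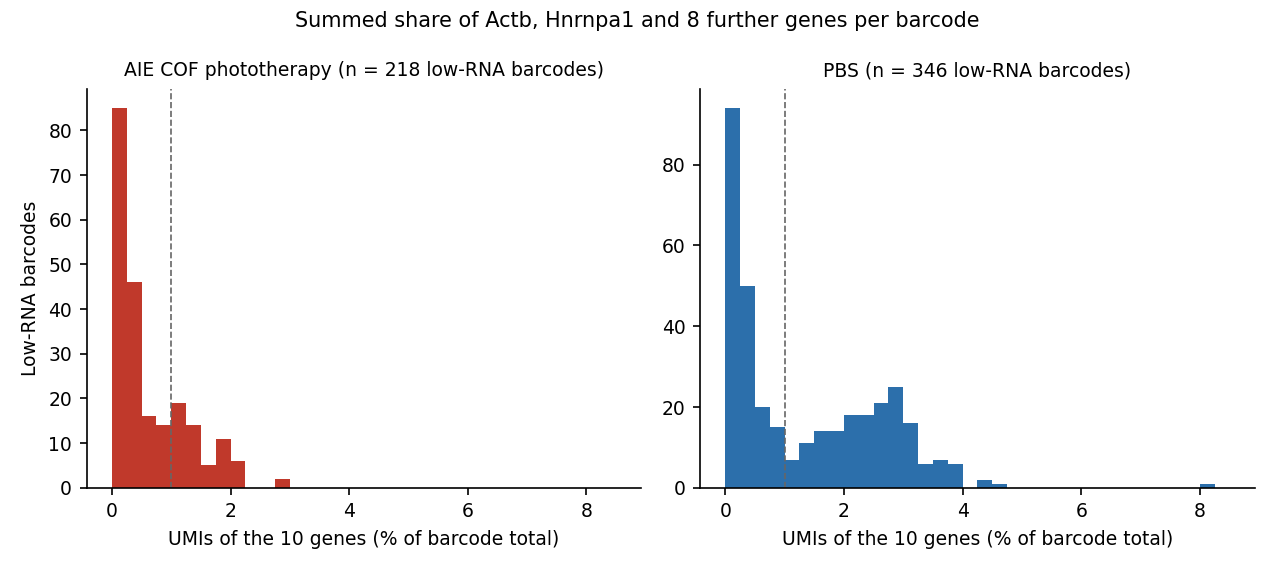
Bars count low-RNA barcodes by the percent of their UMIs that came from Actb, Hnrnpa1, Ptges3, Rrm2, Actr2, Abhd2, Ythdf2, Wtap, Mtmr2 and Polh, in the treated (left) and PBS (right) library. The PBS barcodes show a second peak above 2%, and no treated barcode exceeded 2.88%; the dashed line marks 1%.

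Members with 10% or more ribosomal protein and 1% or more of the 10 genes numbered 57 treated and 165 PBS barcodes. Their ribosomal medians were 18.3% and 19.4%, their Malat1 medians 1.06% and 0.677%, and 0 and 1 of them had more than 10% mitochondrial UMIs. The split used the levels of the 10 genes, which are therefore high in these members by choice and are given as a description. Actb, cytoplasmic actin, stood at 7962 CPM in the treated and 11548 CPM in the PBS ones, against 1745 and 2008 CPM in high-RNA barcodes. Hnrnpa1, a nuclear RNA-binding protein, stood at 1914 and 3859 CPM, against 591 and 632 CPM. Ptges3, the p23 cochaperone of Hsp90, stood at 1906 and 3071 CPM, against 603 and 580 CPM. After thinning of each barcode to 500 UMIs, a UMI of Hnrnpa1 was found in 30.3% of treated and 45.1% of PBS members, and in 25.3% and 25.8% of high-RNA barcodes.

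Other genes stood high in the same members, named here after their values were seen. Sod1, the cytosolic superoxide dismutase, had 384 CPM in treated and 643 CPM in PBS barcodes of this kind, against 51.2 and 70.0 CPM in high-RNA barcodes. Slc39a1, a zinc importer, had 284 and 518 CPM, against 31.5 and 44.7 CPM, and Cdkn1b, the cell cycle inhibitor p27, had 238 and 309 CPM, against 29.4 and 39.1 CPM. Class II antigen presentation genes were among them: Cd74 had 254 and 323 CPM, against 52.5 and 42.2 CPM, and H2-Ab1 108 and 212 CPM, against 28.9 and 23.5 CPM. Class II genes are also macrophage and dendritic cell genes, and whether these UMIs came from such cells was not tested.

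The 10-gene share was not particular to members. It reached 1% in 84 of 476 treated and 169 of 547 PBS barcodes that met the immune and UMI criteria with no Hmga2 or Rhox5 UMI, and in 137 of 2607 treated (5.26%) and 344 of 3244 PBS (10.6%) high-RNA barcodes. In B cell barcodes of 500 to 5000 UMIs it did so in 5.02% and 6.31%. In Ptprc-low barcodes of more than 5000 and under 10000 UMIs it did so in 34.5% (interval 28.0 to 41.5%) and 36.9% (32.1 to 41.9%). The intervals of the libraries overlapped in these and in the B cell barcodes (3.63 to 6.75% and 3.84 to 9.68%). They lay apart, with PBS higher, in the barcodes with no marker UMI (14.3 to 21.4% and 27.0 to 35.0%). They did so too in the high-RNA barcodes (4.43 to 6.18% and 9.57 to 11.7%). Barcodes with 1 marker UMI that met the other criteria had shares of 22.7% (16.1 to 30.5%) and 47.5% (41.8 to 53.3%). Those shares were near the 26.1% and 48.3% of the members. All these contrasts are a description, since the 10 genes were picked for their difference between members of these same libraries. Barcodes of 1 library are not replicates of a treatment, so whether intervals overlap is no test of it.

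Members with 10% or more ribosomal protein and less of the 10 genes were the rest, 62 treated (28.4%) and 65 PBS barcodes (18.8%). Their ribosomal medians were 16.3% and 15.7% and their Malat1 medians 2.14% and 3.34%, between those of the other kinds. Actb stood at 2676 and 2688 CPM in them.

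Across all genes, low-RNA barcodes were compared with high-RNA barcodes within each library from summed UMIs. Of 12687 genes with at least 50 UMIs over both kinds of barcode in each library, 1568 (12.4%) were at least 2-fold higher in low-RNA barcodes in both libraries and 159 (1.25%) at least 2-fold lower. The median log2 ratio over all these genes was 0.35 in the treated and 0.32 in the PBS library. On a total without mitochondrial and ribosomal genes it was 0.26 and 0.21, and why it lay above 0 was not tested. With ratios centred on the medians of 0.35 and 0.32, 722 genes were higher and 634 lower. With the 95% interval also required to lie apart from 0 in both libraries, 957 (7.54%) were higher and 127 (1%) lower. Against barcodes of more than 5000 and under 10000 UMIs, 5759 genes were measured, of which 22 were higher and 70 lower. The share of genes called higher was thus far smaller against barcodes closer in UMIs, and the share called lower was near the 1.25% above.

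Itga9, an integrin subunit gene, stood furthest above the high-RNA level, with 285 CPM in treated and 386 CPM in PBS members, against 13.8 and 12.9 CPM in high-RNA barcodes. Zc3h7a, which encodes a zinc finger RNA-binding protein (chr16:11136592-11176393, minus strand), was the most abundant of these genes. It had 5906 CPM in treated and 7384 CPM in PBS members, against 384 and 427 CPM in high-RNA barcodes, or 15.4 and 17.3 times as much. Celf2, a splicing regulator, had 759 and 710 CPM, against 47.4 and 53.4 CPM. The transcription factor gene Atf2 had 966 and 1078 CPM, against 83.0 and 85.3 CPM. The Celf2 level was not particular to members, since B cell barcodes of 500 to 5000 UMIs had 628 CPM in the treated and 774 CPM in the PBS library. Itga9 and Atf2 were lower in those B cell barcodes than in members, with Atf2 at 166 and 161 CPM. Counts of genes that overlap another annotated gene are uncertain, because no source used here gives whether strand was used. Among the genes named by their ratios these are all 12 of the highest except Slc39a1, Fkbp3 and Higd1a of the lowest, and, in the treated over PBS comparison, Ctla2a, Ikzf2, Tmem267, Prpf6, Rmnd5a and Abhd2. Hmga2 and Malat1 overlap another gene too.

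Zc3h7a UMIs were concentrated in a few members. It had no UMI in 43 of 218 treated and 79 of 346 PBS members, and at most it made up 12.5% of the UMIs of a treated and 23.3% of those of a PBS member. More than 1% of UMIs were Zc3h7a in 40 treated and 47 PBS members, which held 78.6% and 87.2% of the members' UMIs of this gene. Concentration was not particular to Zc3h7a, of which the 5 richest members held 25.5% and 30.1%. They held 34.1% and 35.7% for Itga9, 31.1% and 30.1% for Celf2, and 26.4% and 32.4% for Atf2. The Zc3h7a level was highest in the shallowest members, at 30061 and 21201 CPM in those of 500 to under 1000 UMIs, against 3322 and 6843 CPM in those of 2000 to 5000 UMIs. Immune-negative barcodes with no Hmga2 or Rhox5 UMI had 12175 and 17279 CPM, above the members. B cell barcodes of the same UMI range had 627 and 693 CPM, so the level was high in immune-negative shallow barcodes of either kind and not in B cell barcodes.

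Other genes at least 4-fold higher in both libraries encode proteins of many kinds. Piezo1, a mechanically gated ion channel, had 276 and 191 CPM in members, against 36.7 and 36.1 CPM in high-RNA barcodes. Peak1, a pseudokinase of the cytoskeleton, had 368 and 354 CPM, against 78.0 and 75.4 CPM, and Cdk8, the Mediator kinase, 325 and 352 CPM, against 74.6 and 82.2 CPM. Kdm6b, a histone H3 lysine demethylase, had log2 ratios of 2.48 in the treated and 2.13 in the PBS library. Tex14 and Ccnb1ip1, which are best known from germ cells, had 2.52 and 2.02, and 3.84 and 2.73. The last of the 12, Sephs2, an enzyme of selenium metabolism, and Slc39a1 had ratios of 2.10 and 2.70, and 2.07 and 2.53, and stood highest in the Actb-rich members. In treated members under 10% ribosomal protein Sephs2 had 2 UMIs and a ratio of -0.72. The ratio of Slc39a1 against barcodes of more than 5000 and under 10000 UMIs was -0.23 in the treated library.

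**Figure D3:**
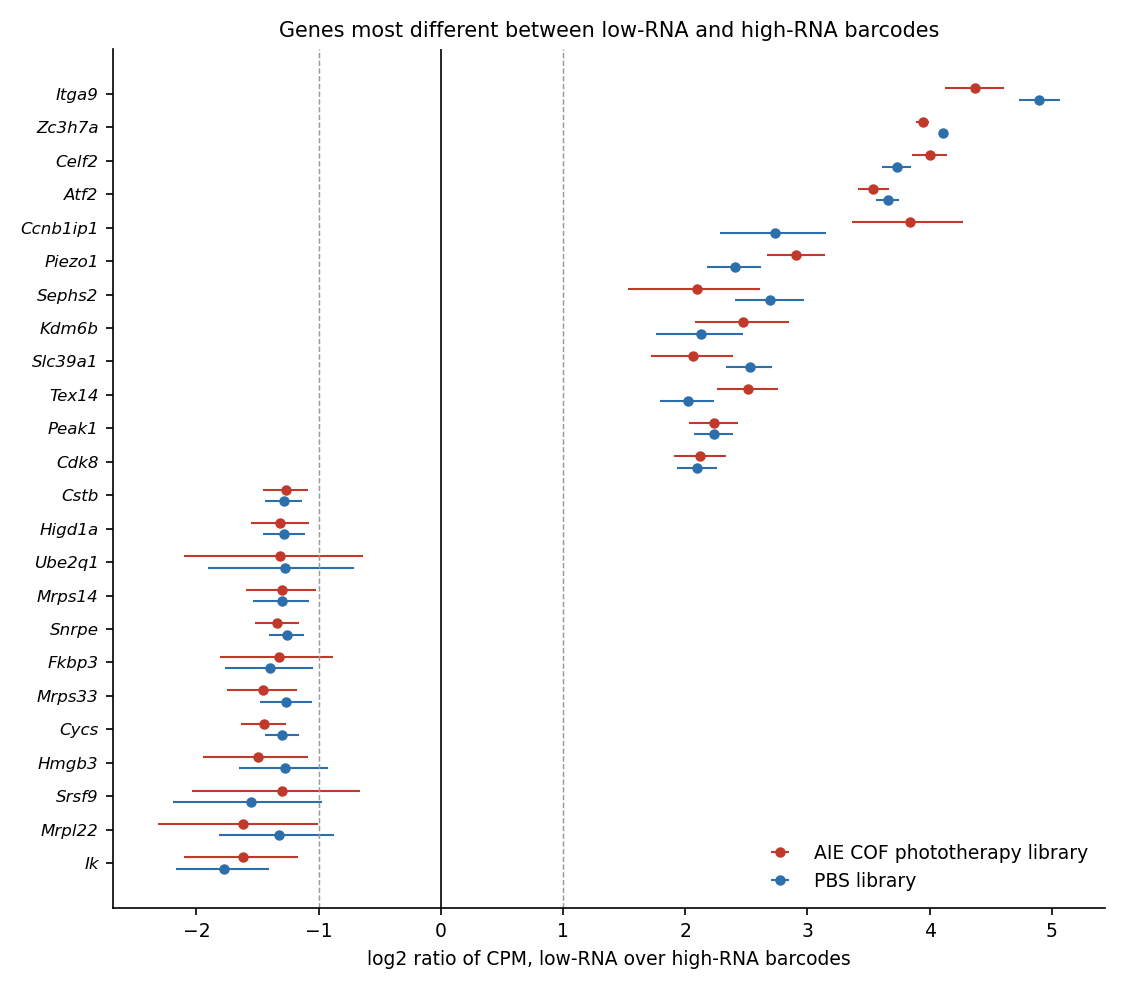
Points give the log2 ratio of CPM in low-RNA over high-RNA barcodes for 24 genes, the 12 furthest above and the 12 furthest below 0 in both libraries, with 95% counting intervals; the treated library is drawn above the PBS library. Itga9 and Zc3h7a lie near 4 or above, and all 12 lower genes lie between -1 and -2.

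Among the genes furthest below the high-RNA level was Cycs, which had 420 CPM in treated and 460 CPM in PBS members, against 1149 and 1132 CPM in high-RNA barcodes. The mitochondrial ribosome genes Mrps33, Mrps14 and Mrpl22 had log2 ratios of -1.46 and -1.26, -1.30 and -1.30, and -1.62 and -1.33 in the treated and PBS library. Snrpe, a core protein of spliceosomal particles, had 452 and 419 CPM, against 1142 and 1004 CPM. Srsf9 and Ik, also of splicing, Higd1a of the mitochondrial inner membrane, the protease inhibitor gene Cstb and Fkbp3, Hmgb3 and Ube2q1 completed the 12, with ratios between -1.26 and -1.77.

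All 13 messages encoded by mitochondrial DNA were higher in members in both libraries, 8 of them by 2-fold or more in both, with median log2 ratios of 1.34 and 1.02. The 74 measured nuclear genes of the respiratory chain had medians of -0.94 and -0.70, with none 2-fold higher and 6 lower, among them Uqcrb at -1.43 and -1.15 and Atp5g1 at -1.35 and -1.09. The median ratios of the mitochondrially and the nuclear-encoded genes of these complexes had opposite signs. Ribosomal protein genes had medians of -0.76 and -0.69 over 86 measured, with 1 higher and 7 lower, and the 15 translation factors had -0.54 and -0.32 with none past 2-fold. Over all genes the medians were 0.35 and 0.32, and 12.4% were higher and 1.25% lower.

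Malat1 (chr19:5795690-5802672, minus strand), the nuclear long noncoding RNA, had 51220 CPM in treated and 47657 CPM in PBS members, against 12531 and 16629 CPM in high-RNA barcodes. Neat1, the scaffold RNA of paraspeckles, had log2 ratios of 1.70 and 1.42. The 19 measured splicing and nuclear RNA-binding genes had medians of 0.50 and 0.31, of which the splicing kinase gene Clk1 alone passed 2-fold, at 1.08 and 1.07. The PBS median of this group lay just under the median of 0.32 over all genes, and centred on that it was -0.01.

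Of the 20 genes of G2 and mitosis, 0 were 2-fold higher and 2 were 2-fold lower, beside 12.4% higher and 1.25% lower over all genes. The 2 were Birc5 (-1.54 and -1.14) and Ccnb2 (-1.22 and -1.02), and the median ratios of the 20 genes were -0.43 and -0.40. Their summed level was 3160 CPM in treated and 3141 CPM in PBS members, against 4681 and 4479 CPM in high-RNA barcodes. The 19 measured S phase genes had medians of -0.28 and -0.10 and none passed 2-fold. Of the apoptosis and survival genes 3 of 17 were higher, a share near the 12.4% over all genes, Bcl2a1b (2.10 and 2.24), Bcl2 (1.62 and 1.10) and Bcl2l1 (1.38 and 1.41), and Cycs was lower.

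Ratios rose with the length of the gene in the genome. The 4259 protein-coding genes that reached 50 CPM in some kind of barcode were ordered by span and cut into 4 groups of like size. The group of the shortest genes, up to 13601 bases, had median log2 ratios of -0.63 in the treated and -0.50 in the PBS library. The second group had -0.12 and -0.05, the third 0.38 and 0.30, and the group of the longest genes, from 83715 bases, 0.91 and 0.69. Calls followed, beside 12.4% higher and 1.25% lower over all genes. Of 1065 genes in the shortest group 37 were higher and 82 lower, and of 1065 in the longest 181 and 0. The second group had 51 higher and 18 lower of 1065, and the third 87 and 3 of 1064. A gene could reach 50 CPM through its level in low-RNA barcodes alone, and such genes were not set apart. Groups by exon length gave -0.59 and -0.47 in the shortest and 0.77 and 0.61 in the longest, so span and exon length could not be told apart as correlates.

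**Figure D4:**
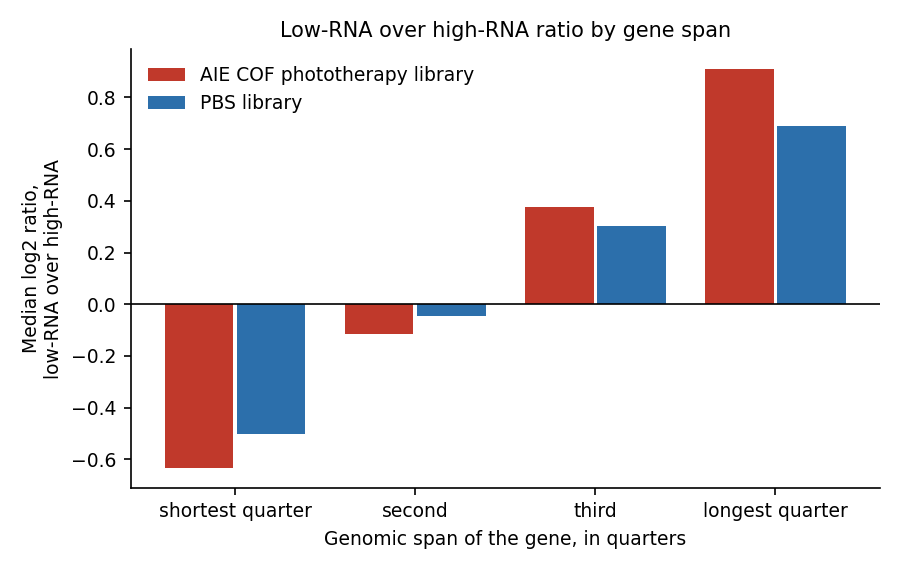
Bars give the median log2 ratio of CPM in low-RNA over high-RNA barcodes for protein-coding genes in 4 groups of like size ordered by genomic span, with the treated library left of the PBS library in each group. Medians run between -0.63 and 0.91 in the treated and between -0.50 and 0.69 in the PBS library, lowest for the shortest genes.

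Treated members were then compared with PBS members gene by gene. Of 4932 genes with at least 50 UMIs in members of both libraries combined, 412 (8.35%) were at least 1.5-fold higher in treated members and 328 (6.65%) at least 1.5-fold lower, and the median log2 ratio was 0.02. With the 95% interval also required to exclude 0, 320 (6.49%) were higher and 219 (4.44%) lower. In high-RNA barcodes, where depth is far greater, 4.4% of 14552 genes were higher and 4.92% lower. These are differences between 1 pair of libraries.

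The 10 genes furthest below 0 by the interval bound nearer 0 were the set summed above. Actb (chr5:142903115-142906754, minus strand) had 3031 CPM in treated and 5723 CPM in PBS members, a log2 ratio of -0.92 (interval -0.996 to -0.84), against -0.20 in high-RNA barcodes. Hnrnpa1 (chr15:103240432-103246692, plus strand) had 710.5 and 1739 CPM, a ratio of -1.29 (-1.45 to -1.13), against -0.10 in high-RNA barcodes. Rrm2, the small subunit of ribonucleotide reductase, had 268 and 662 CPM (-1.31), and Actr2 of the Arp2/3 actin-nucleating complex 372 and 755 CPM (-1.02). Actb and Hnrnpa1 have processed pseudogenes that can take or give reads, which makes their counts uncertain.

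The set also held a pair of genes of the RNA modification N6-methyladenosine. Wtap, of the enzyme complex that writes it, had 122 CPM in treated and 299.7 CPM in PBS members (log2 ratio -1.30), and Ythdf2, a protein that reads it, had 129 and 312 CPM (-1.28). The DNA polymerase gene Polh, the lipid phosphatase gene Mtmr2, the hydrolase gene Abhd2 and Ptges3 had ratios of -1.47, -1.38, -1.16 and -1.09. In high-RNA barcodes the 10 genes had ratios between -0.45 and 0.07.

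The ratios of the set varied between kinds of member. In members under 10% ribosomal protein, Hnrnpa1 had 222 CPM in treated and 193 CPM in PBS barcodes, a ratio of 0.20 (interval -0.32 to 0.73), and Ythdf2 80.5 and 83.9 CPM. In the same members Actb had 824 and 1222 CPM (-0.57, interval -0.81 to -0.33), Rrm2 a ratio of -1.41 (-2.38 to -0.53) and Polh one of -1.18 (-2.45 to -0.06), and the other 5 genes had ratios between -1.004 and -0.21 with intervals that include 0. In the others Hnrnpa1 had 1115 and 2705 CPM, a ratio of -1.28. Among the Actb-rich members PBS levels were again above treated levels, as given above, on a split made with these genes. In members with 10% or more ribosomal protein and under 1% of the 10 genes, where the choice removes high values, Actb had 2676 and 2688 CPM and Hnrnpa1 553 and 467 CPM.

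Several genes higher in treated members had their UMIs in few barcodes. Ctla2a, a cysteine protease inhibitor, had 48 UMIs in 15 treated members and 2 in PBS members (83.4 and 2.15 CPM, log2 ratio 5.28, interval 3.35 to 8.36). Jchain, the joining chain of secreted antibodies, had 92 UMIs in 9 treated and 10 in 7 PBS members (ratio 3.89), and Ighg1, an antibody heavy chain gene, 84 in 10 treated and 6 in 6 PBS members (4.50). The 5 richest barcodes held 95.7% of the treated Jchain UMIs, 94.0% of those of Ighg1, 93.3% of those of the chemokine Ccl5 and 68.8% of those of Ctla2a.

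The antibody UMIs lay in few barcodes. In the treated library 5 members had 2 or more UMIs of Jchain and Ighg1, and they held 167 of the 176 UMIs of this pair; in the PBS library 3 members held 7 of 16. Both genes belong to the plasma cell marker list, which summed to 379 CPM in treated and 62.3 CPM in PBS members. Of its other genes Mzb1 had 17 and 1 UMIs, Xbp1 25 and 41, and Igkc, Igha and Derl3 none. A set of 4 genes picked after their values were seen, Igfbp3, Igfbp7, Mecom and Ctla2a, had 2 or more UMIs in 21 treated members and 1 PBS member. The 21 held 134 of the 151 UMIs of these genes in treated members, and 17 of the 19 endothelial marker UMIs lay in them, over 9 barcodes. Their median ribosomal share was 17.4% and their median of marker UMIs was 2, the least the rule allows. Without the 9 treated and 10 PBS members that had 3 or more UMIs of endothelial, pericyte or plasma cell markers, 428 genes were higher and 344 lower. Of these treated members 2 reached 3 endothelial UMIs, so most of the 21 stayed in and their part was not tested.

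Ccl5 turned on 1 barcode. It had 119 UMIs in 13 treated members, 98 of them in 1 barcode, and 83 in 45 PBS members, with a log2 ratio of 1.21 (interval 0.80 to 1.64). With at least 3 marker UMIs required, the ratio was -1.15. In members under the ribosomal protein limit given above, Ccl5 had 2 treated and 25 PBS UMIs, a ratio of -3.19 (interval -6.31 to -1.19). In the other members Ccl5 had 117 and 58 UMIs, a ratio of 1.88 (1.41 to 2.36). Ccl5 attracts T cells and macrophages and is also a T cell product.

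Other genes higher in treated members were found in more barcodes. Cxcl1, a neutrophil-attracting chemokine, had 89 UMIs over 49 treated members and 54 over 39 PBS members, 155 and 58.0 CPM, a ratio of 1.41 (0.91 to 1.93), and high-RNA barcodes had a ratio of 1.28. The other 9 genes had high-RNA ratios between -0.59 and 0.58. Ikzf2, the transcription factor Helios, had 83.4 and 17.2 CPM (2.28) over 31 and 14 members, and Nr4a2, an orphan nuclear receptor, 76.4 and 19.3 CPM (1.98) over 23 and 16 members. Tmem267, Rmnd5a of a ubiquitin ligase complex and the spliceosome gene Prpf6 had ratios of 1.57, 1.53 and 1.34, and 1 treated barcode held 25 of the 89 Prpf6 UMIs. Those 5 genes had ratios between -0.21 and 0.43 in high-RNA barcodes, and whether the low-RNA and high-RNA ratios differ between animals was not tested.

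**Figure D5:**
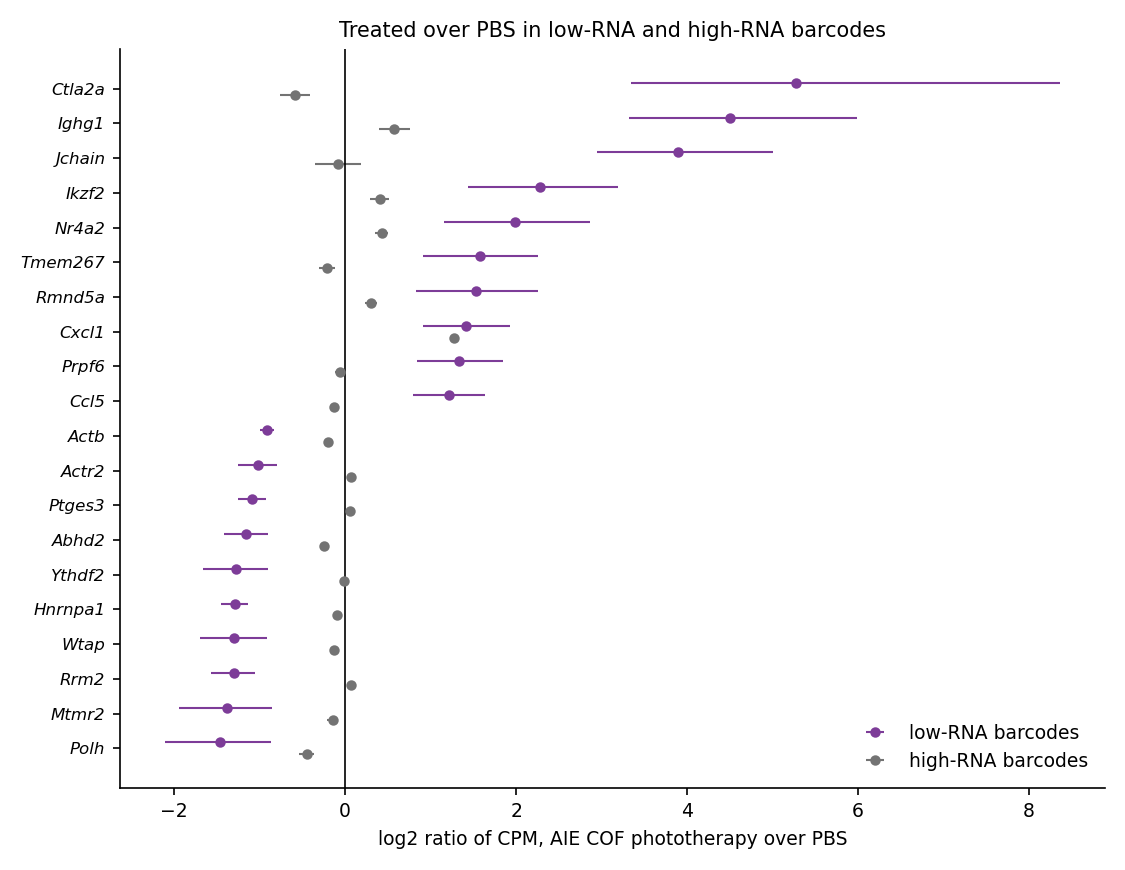
Points give the log2 ratio of CPM in treated over PBS barcodes for the 10 genes firmest above and the 10 firmest below 0 in low-RNA barcodes, with 95% counting intervals, for low-RNA (upper point) and high-RNA barcodes (lower point). Cxcl1 lies above 1 in both, and the 10 lower genes lie between -0.9 and -1.5 in low-RNA and between -0.45 and 0.07 in high-RNA barcodes.

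Of 15 interferon-induced genes measured, none was 1.5-fold higher in treated members and 6 were lower, where 8.35% and 6.65% of all genes were, with a median log2 ratio of -0.46, against -0.29 for the same genes in high-RNA barcodes and 0.02 over all genes in members. Isg15, a ubiquitin-like modifier, had 26.1 CPM in treated and 68.8 CPM in PBS members (-1.40, interval -2.32 to -0.57). Ifi27 had 59.1 and 136 CPM (-1.21), and Bst2, the virus-retaining protein tetherin, 229 and 384 CPM (-0.74). The 6 genes, Zbp1 and Ifi35 among them, had negative ratios in high-RNA barcodes too, between -0.76 and -0.29. The median was -0.93 over 7 measured genes in members under 10% ribosomal protein and -0.18 over 11 in the others. Of 9 class I antigen presentation genes, 2 were lower, H2-Q4 at -1.21 and Tapbp at -0.66.

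Of 72 nuclear genes of the respiratory chain, 0 were higher in treated members, 11 were lower and 61 passed neither limit, beside 8.35% higher and 6.65% lower over all genes. Their median was -0.34, against -0.10 in high-RNA barcodes. Sdhd of complex II had 22.6 and 46.2 CPM (-1.03), Atp5a1 of the ATP synthase 196 and 318 CPM (-0.70) and Cox8a of complex IV 677 and 1029 CPM (-0.60). Mitochondrially encoded genes had a median of 0.19, against -0.11 in high-RNA barcodes, and mt-Nd1 at 0.60 and mt-Nd3 at 0.67 passed 1.5-fold. The treated members' larger share of barcodes under 10% ribosomal protein moves with both groups, and its part in them was not tested across animals. Within members of 10% or more ribosomal protein the medians were -0.22 and 0.02, and within the others -0.27 and 0.35.

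In the groups that follow the calls were few, to be read beside the 8.35% higher and 6.65% lower over all genes. Of 14 immediate early genes, Klf4 (281 and 187 CPM, 0.59) and Junb (294 and 196 CPM, 0.59) were higher in treated members and none was lower. Of 5 chemokine genes, Cxcl1 and Ccl5 were higher and Cxcl2 was lower, with 10 UMIs in treated and 47 in PBS members (-1.54). Among 13 measured tumour identity genes, Cd44, a hyaluronan receptor, was higher at 1197 and 724 CPM (0.72) and Spp1, Tmsb10 and the imprinted RNA H19 were lower, with H19 at 53.8 and 91.3 CPM (-0.76). Of 11 apoptosis and survival genes, Apaf1, the core of the apoptosome, was higher at 174 and 109 CPM (0.68), and Bcl2l11, which encodes the death activator Bim, at 46.9 and 31.2 CPM (0.59, interval -0.22 to 1.40).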

How the data were processed

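Per the labels' protocols, cells of both tumour suspensions were prepared with the MobiCube 3' kit and sequenced on a NovaSeq instrument. Alignment tools and builds named in the submitters' processing notes are STAR and mm10. No source used here gives the counting program, its annotation or its use of strand. The authors deposited whole UMI counts per gene and barcode, without normalization, and 0 per-sample columns were left unused.

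UMIs were summed per library and kind of barcode and expressed as CPM. Ratios carry exact conditional binomial 95% intervals and shares exact Clopper-Pearson 95% intervals; genes at 0 were set to a floor of 3 counts over the group. These intervals cover counting error only, and with 1 library per group no p-value exists. The minimum was 50 UMIs per gene, and the length groups took protein-coding genes. Genes were called at 2-fold in both libraries (low-RNA over high-RNA) or at 1.5-fold (treated over PBS). Doublets were not removed. Scrublet in scanpy 1.11.5 scored 694 treated and 569 PBS kept barcodes as doublets, of which 11 and 6 were members, and leaving them out is an alternative. GENCODE M21 (GRCm38) gave positions and lengths for 32158 of the 32285 gene identifiers. Python 3.11.15, numpy 2.4.6, scipy 1.17.1 and pandas 2.3.3 were used, and the intervals were tested on simulated data.

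Members, lists and limits were chosen with earlier results of these data known. Named genes were Hmga2, Rhox5 and Ptprc; the 12 highest and 12 lowest low-RNA over high-RNA ratios by the library nearer 0, at 50 CPM or more; the 10 highest and 10 lowest treated over PBS ratios by the interval bound nearer 0; the 12 highest levels; and up to 4 members of a list described. The ratio rules skipped genes that are mitochondrial, ribosomal protein, haemoglobin or without a proper name. Of the 12 highest levels, Ptma, Eef1a1, Npm1, Ppia, Tpt1 and Fau are not described further.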

Additional observations from a re-analysis of the deposited data

Results flagged for a closer look

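Some of the named genes had opposite signs of the treated over PBS log2 ratio in low-RNA and high-RNA barcodes. The difference was not tested, since each library is 1 sample. Higher in treated low-RNA barcodes were Ctla2a at 5.28 against -0.59 in high-RNA barcodes, Tmem267 at 1.57 against -0.21, Prpf6 at 1.34 against -0.06 and Ccl5 at 1.21 against -0.13. Lower in treated low-RNA barcodes were Rrm2 at -1.31 against 0.07, Ptges3 at -1.09 against 0.06 and Actr2 at -1.02 against 0.07. Ctla2a and Ccl5 rest on few barcodes, with 68.8% and 93.3% of their treated UMIs in 5 barcodes each.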

How the results depend on the processing

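No paired analysis was possible because each group is 1 library, and no replicate could be left out. Of the shares and counts of genes, 56 values under alternatives stayed within the spread used and 26 moved. With at most 10% mitochondrial UMIs the log2 share ratio was -1.13 among kept and -0.71 among Ptprc-negative barcodes (as reported -0.81 and -0.45), and 70 genes were lower in low-RNA barcodes (as reported 159). Counts of genes higher and lower in low-RNA over high-RNA barcodes were, as reported, 1568 and 159 of 12687 genes measured. They were 722 and 634 centred on the median. In members of 10% or more ribosomal protein they were 918 and 37 of 12674, and in the others 2621 and 1069 of 12667. Against barcodes of more than 5000 and under 10000 UMIs they were 22 and 70 of 5759. The higher count was 937 of 9994 against immune-negative marker-positive high-RNA barcodes and 177 of 4182 after thinning to 500 UMIs. It was 957 where the interval also had to lie apart from 0. The lower count was 273 on a total without mitochondrial and ribosomal genes. Counts higher and lower in treated members (as reported 412 and 328 of 4932 genes measured) changed together with the number of genes measured. They were 105 and 192 of 818 at 500 to 2000 UMIs and 84 and 120 of 927 after thinning. These smaller counts were not smaller shares of the genes measured. With at least 20 UMIs per gene they were 953 and 796 of 7734, and with at least 1, 2862 and 1864 of 15187. In members under 10% ribosomal protein they were 197 and 210 of 2505, and in the others 239 of 3045 were higher. A lower minimum of UMIs per gene lets in more genes by construction, and for the rest the cause was not tested. Among named genes, 806 values stayed, 350 moved and 4 changed sign: Ccl5 with at least 3 marker UMIs (-1.15), Slc39a1 in the treated library against the barcodes under 10000 UMIs (-0.23), and, under 10% ribosomal protein, Sephs2 in the treated library (-0.72) and Hnrnpa1 treated over PBS (0.20). Not among these 4 is Ccl5, at -3.19 treated over PBS under 10% ribosomal protein. It had 2 treated and 25 PBS UMIs there, under the minimum of 50 UMIs per gene. The splits by ribosomal protein, the interval criterion and the removal of other-lineage barcodes were chosen after seeing the data.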

Other observations

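Immune-negative barcodes of 500 to 5000 UMIs without an Hmga2 or Rhox5 UMI, 476 in the treated and 547 in the PBS library, outnumbered the members. Their median depths were 955.5 and 1002 UMIs. Their ribosomal protein medians were 9.84% and 10.9%, their mitochondrial medians 5.63% and 6.36% and their Malat1 medians 5.02% and 4.71%. The same low ribosomal and high Malat1 shares were therefore found in shallow barcodes that carried neither tumour marker, and which cells they came from was not tested.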
